A study of Rattus norvegicus with 6 samples.

Results

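Heterotrimeric G protein subunits and the RGS (regulator of G protein signalling) genes were taken from an RNA sequencing study of rat dorsal root ganglia, by gene symbol alone. The symbols taken were those starting with Rgs and a digit, with Gnai, Gnao, Gnaq, Gnas, Gnaz, Gnal, Gnat or Gna1, or with Gnb or Gng and a digit, together with Gngt1 and Gngt2. They matched 53 of the 18696 genes in the authors' table of group averages, of which 16 were G alpha, 6 Gnb, 11 G gamma and 20 Rgs genes. Gnb1l and the anchors Rgs7bp and Rgs9bp came in by their names, although Gnb1l is not known as a subunit of a G protein and the anchors have no RGS domain. The role lists also held Gngt1, Rgs11, Rgs13 and Rgs21, which were not analysed here.

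The ganglia, which hold the cell bodies of sensory neurons, came from SD rats. In the SNI group (spared nerve injury, 3 libraries) the common peroneal and tibial branches of the sciatic nerve had been tied and cut, a short distal piece removed and the sural branch spared. In the sham group (3 libraries), whose columns the files call control, these nerves had been exposed and the skin closed. The labels give no age, sex, time after surgery or spinal level, and do not state that the libraries of a group are separate animals, so the p-values reflect how far these libraries scatter, and that scatter may be technical. Levels are TPM, a share of the library's transcripts that corrects for gene length. Average read counts summed to 18.59 M in each group, so they may be scaled, and the depth of a single library is unknown. In the 1596 genes tested, each library correlated more closely with its own group (mean r of 0.995 to 0.996) than with the other (0.947 to 0.952), and no library stood apart. The authors chose these genes by a rule not stated, and many differ between the groups, so this closeness may be built in. Of 16 sensory neuron markers all were detected, with summed averages of 35123 TPM in sham, against 29858 TPM in SNI. The 3 neurofilament genes among them, split off after the values were seen, summed to 16877 and 10432 TPM in that order. The other 13 markers summed to 18245 and 19426 TPM. Of those 13, 8 had lower averages in SNI and 5 higher, among them the abundant Tubb3 (4726 and 6108 TPM). In bulk tissue, fewer cells of a type and less RNA per cell cannot be told apart.

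A G protein couples a receptor to its effectors. The activated receptor makes the alpha subunit exchange GDP for GTP, and alpha and the beta-gamma dimer then act separately on adenylyl cyclases, phospholipase C and ion channels, until GTP hydrolysis by alpha ends the signal. RGS proteins speed that hydrolysis. In sensory neurons, receptors coupled to Gi and Go dampen excitability and transmitter release, as opioids do, while those coupled to Gs and Gq sensitize the cell.

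**Figure D1:**
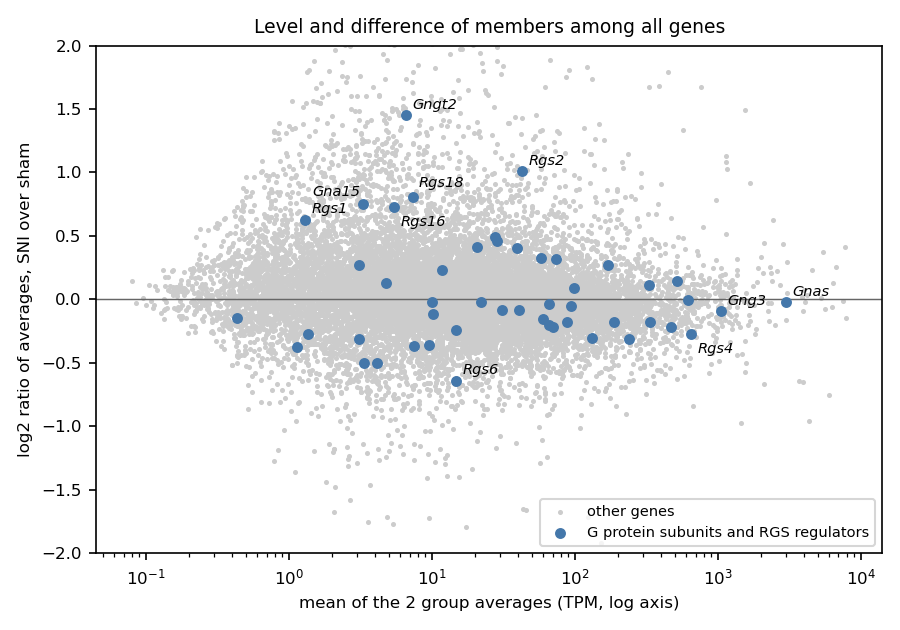
Mean of the 2 group averages (horizontal, TPM, log axis) against the log2 ratio of averages, SNI over sham, with 1 TPM added to each (vertical), for genes with an average of at least 10 reads in the group with more reads. Blue points are the 49 members, grey points other genes, of which 85 lie beyond the vertical limits of 2. The abundant members lie near 0, and the members past 1.5-fold lie under 50 TPM.

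Values in every library were given for 8 members, and for the other 45 only the authors' group averages, which have no spread and were not tested. Where a pair of averages is given below, sham comes first and SNI second. Among 49 members with an average of at least 10 reads in the group with more reads, the average was higher in SNI for 19 and lower for 30, with a median log2 ratio of −0.05. Over all 15854 such genes 46.5% were lower, and the median was 0.02. Past 1.5-fold, 6 members were higher (Gngt2, Rgs2, Rgs18, Gna15, Rgs16 and Rgs1), against a background of 6.8% of all genes, and 1 was lower (Rgs6), against 2.53%. Of the 21 members with a mean of at least 50 TPM, 15 were lower in SNI and 0 were past 1.5-fold. In that range of abundance 57.4% of all genes were lower, 3.87% were past 1.5-fold higher and 1.91% past it lower. Between 5 and 50 TPM 9 of 18 members were lower (45.1% of all genes). There 4 were past 1.5-fold higher and 1 lower (6.01% and 2.34% of all genes). Under 5 TPM 6 of 10 were lower (40.1% of all genes), and 2 were past 1.5-fold higher and 0 lower (10.7% and 3.41%). In the authors' deposited table of higher genes there were 3 members, Gngt2, Rgs2 and Gna15 (background 3.63% of genes), and in the authors' deposited table of lower genes 0 (background 0.695%).

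The upstream sequences of 6 members, chosen with the motifs after the values were seen, are shown as the context of 2 sets described below: Rgs2, Rgs1 and Rgs18, neighbours on 1 chromosome with higher averages in SNI, and Rgs6, Rgs7bp and Gnb5, which encode parts of 1 complex and had lower averages. Each is the 250 bases before the annotated start (RefSeq, GRCr8), 5′ to 3′. Capitals mark matches on either strand to TGACG (the short core of a cAMP response element), TGANTCA (AP-1), GAGGAA (a core of PU.1 sites) or GGGCGG (a GC box).
Rgs2 (GRCr8 chr13:58352667-58352916, minus strand): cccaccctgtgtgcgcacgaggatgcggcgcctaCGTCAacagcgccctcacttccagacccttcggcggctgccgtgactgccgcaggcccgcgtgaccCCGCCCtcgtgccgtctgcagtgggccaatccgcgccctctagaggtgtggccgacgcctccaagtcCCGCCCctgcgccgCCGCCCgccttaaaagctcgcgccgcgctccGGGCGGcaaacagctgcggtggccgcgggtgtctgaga
Rgs1 (GRCr8 chr13:58573188-58573437, minus strand): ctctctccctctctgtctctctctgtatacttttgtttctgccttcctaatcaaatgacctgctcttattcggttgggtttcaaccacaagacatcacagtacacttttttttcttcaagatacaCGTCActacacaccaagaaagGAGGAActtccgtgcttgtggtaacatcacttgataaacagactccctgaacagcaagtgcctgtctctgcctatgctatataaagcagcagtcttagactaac
Rgs18 (GRCr8 chr13:59066343-59066592, minus strand): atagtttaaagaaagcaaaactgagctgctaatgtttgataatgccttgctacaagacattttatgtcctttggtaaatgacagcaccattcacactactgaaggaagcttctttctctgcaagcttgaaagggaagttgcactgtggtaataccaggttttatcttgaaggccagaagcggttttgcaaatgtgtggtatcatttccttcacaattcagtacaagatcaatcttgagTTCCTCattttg
Rgs6 (GRCr8 chr6:107996245-107996494, plus strand): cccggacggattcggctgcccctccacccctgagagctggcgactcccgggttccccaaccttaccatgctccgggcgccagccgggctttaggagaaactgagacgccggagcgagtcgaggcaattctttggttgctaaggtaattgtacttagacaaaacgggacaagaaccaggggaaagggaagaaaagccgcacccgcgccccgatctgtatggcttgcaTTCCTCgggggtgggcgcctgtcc
Rgs7bp (GRCr8 chr2:37965254-37965503, minus strand): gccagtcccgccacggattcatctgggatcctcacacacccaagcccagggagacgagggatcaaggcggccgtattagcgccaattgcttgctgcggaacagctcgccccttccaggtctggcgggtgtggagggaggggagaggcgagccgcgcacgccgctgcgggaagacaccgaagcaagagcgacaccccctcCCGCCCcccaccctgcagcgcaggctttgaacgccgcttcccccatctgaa
Gnb5 (GRCr8 chr8:84956379-84956628, plus strand): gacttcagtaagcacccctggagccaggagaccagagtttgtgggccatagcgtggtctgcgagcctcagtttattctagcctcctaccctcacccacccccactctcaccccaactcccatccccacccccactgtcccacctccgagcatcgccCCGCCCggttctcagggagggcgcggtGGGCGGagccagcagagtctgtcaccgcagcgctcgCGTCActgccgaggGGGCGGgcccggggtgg
Upstream of Rgs2 there was 1 TGACG match and 4 GC boxes, in a window of 72.4% G and C. The windows of Rgs1 and Rgs18 held 42.8% and 38.4% G and C, 1 GAGGAA match each and 0 GC boxes, and that of Rgs1 also held 1 TGACG match. In the other set, the Gnb5 window held 3 GC boxes and 1 TGACG match, that of Rgs7bp 1 GC box and that of Rgs6 1 GAGGAA match. No TGANTCA match was found in these 6 windows, and no marked matches overlapped. Among 33360 upstream windows of the same length, TGACG occurred in 18.2%, TGANTCA in 6.35%, GAGGAA in 23.3% and GGGCGG in 30.5%, and the median G and C content was 51.6%. These matches are descriptions of letters, and binding was not measured.

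G alpha subunits set which effector a receptor reaches. Gnas, the stimulator of adenylyl cyclase, was the most abundant member at averages of 3047 TPM in sham, against 3003 TPM in SNI, and Gnal, its olfactory relative, averaged 199 and 175 TPM. The Gnas locus also makes overlapping imprinted transcripts, and how their reads were counted is not given in the labels or headers. Among the subunits that inhibit adenylyl cyclase or, as Gnao1 does, act mainly through beta-gamma, Gnai2 and Gnao1 were the most abundant. Gnai2 averaged 496 TPM in sham, against 548 TPM in SNI, and Gnao1 averaged 503 and 433 TPM. The sham averages were close, and the order of these genes was not tested. Gnai3 averaged 51.5 and 64.8 TPM, and Gnaz 66.7 and 65.2 TPM.

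Gnai1 (NCBI Gene ID 25686), another inhibitory subunit, stood at 81.9, 68.1 and 76.3 TPM in the sham libraries and at 62.5, 64.4 and 67.1 TPM in the SNI libraries. The groups did not overlap, but the lowest sham library lay close to the highest SNI library. Gnai1 fell by 0.22 on the log2(TPM + 1) scale (SE 0.07, limma with Benjamini-Hochberg adjustment over the per-library table, adjusted p = 0.023). The call was lost without sham replicate 1, sham replicate 3, SNI replicate 1 or SNI replicate 2 (limma adjusted p from 0.059 to 0.074).

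Subunits of the Gq family activate phospholipase C beta. Gna14 (Gene ID 309242) stood at 95.5, 94.5 and 92.1 TPM in sham, against 82.6, 84.1 and 82.0 TPM in SNI. All 3 SNI libraries lay below all 3 sham libraries. It fell by 0.18 on the log2(TPM + 1) scale (SE 0.04, limma adjusted p = 0.0063). Gnaq and Gna11, the widely expressed members, averaged 95.8 and 92.3 TPM and 31.8 and 30.0 TPM in sham and SNI in that order. Gna15 (Gene ID 89788), the member of this family known from blood cells, averaged 2.20 TPM in sham, against 4.38 TPM in SNI, from average read counts of 35.3 and 73.3. Its plain ratio of averages was 2.00, and its log2 ratio with 1 TPM added was 0.75. Of the G12 family, Gna12 averaged 95.2 and 101 TPM and Gna13 17.7 and 23.9 TPM. The sensory transducins Gnat1 and Gnat2 and the gustducin Gnat3 had average read counts under 10 in both groups and TPM averages of at most 0.47, so no ratio is given.

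**Figure D2:**
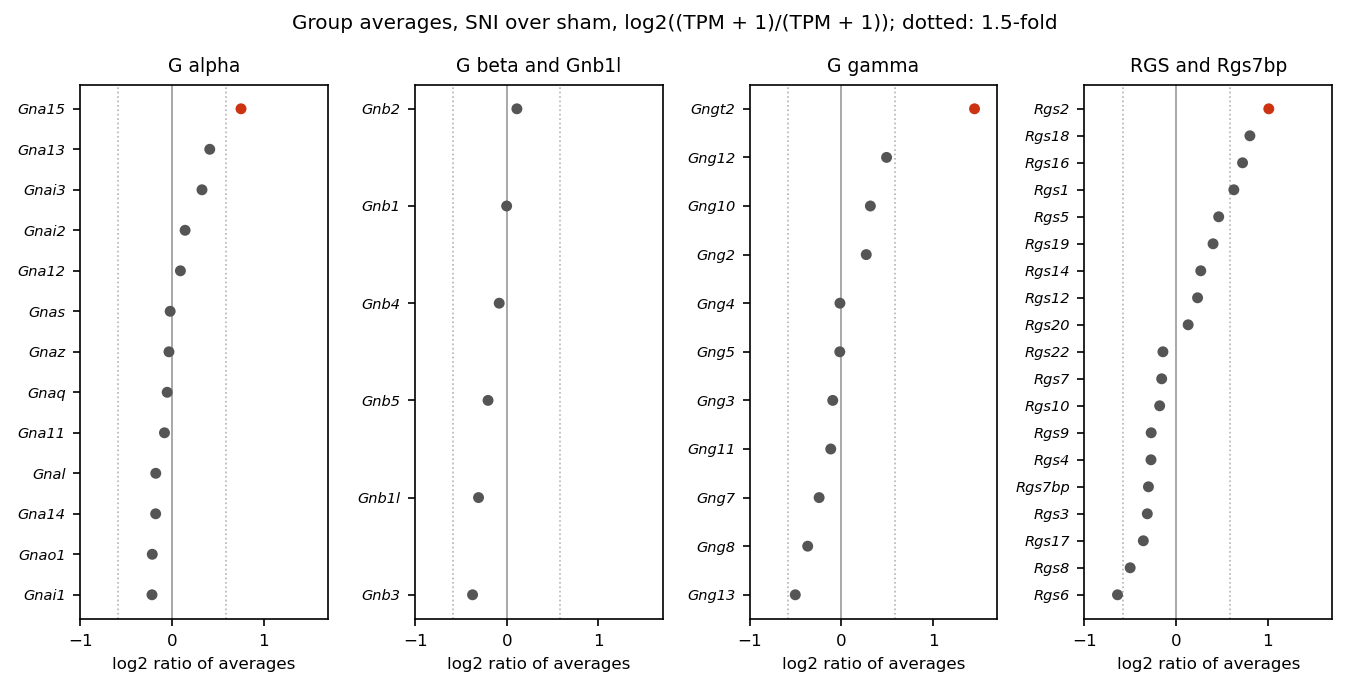
Log2 ratio of group averages, SNI over sham, with 1 TPM added, for the 49 members with enough reads, by class. Points are the authors' averages without error, red points are the 3 in the authors' deposited table of higher genes, and dotted lines mark 1.5-fold. Most G alpha and Gnb genes lie inside the dotted lines, and the RGS genes spread from −0.64 (Rgs6) to 1.01 (Rgs2).

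Beta and gamma subunits form a tight dimer that anchors the protein to the membrane. Gnb1 averaged 625 TPM in sham, against 624 TPM in SNI, Gnb2 320 and 346 TPM, and Gnb3, known from retinal cones and taste cells, 1.41 and 0.863 TPM. Gnb1l averaged 3.54 and 2.67 TPM. Gnb4 (Gene ID 294962) stood at 44.6, 39.5 and 41.2 TPM in sham, against 38.2, 39.5 and 40.4 TPM in SNI, with overlapping groups. Its log2 difference was −0.08 with a 95% interval from −0.21 to 0.05 (limma adjusted p = 0.26), so it did not pass the test. Gnb1 and Gnai2 have 2 and 1 annotated pseudogenes in the RefSeq table, and Gng5 and Gng10 have 5 and 1, with which reads of these genes may have been shared.

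Gng3, the gamma subunit typical of neurons, was the most abundant gamma gene. It stood at 1054, 1104 and 1114 TPM in sham, against 1039, 1007 and 1019 TPM in SNI. The groups did not overlap, and the log2 difference was −0.09 with a 95% interval from −0.18 to −0.01 (limma adjusted p = 0.058), which did not pass after adjustment. Gng8 (Gene ID 245986), a gamma subunit known from olfactory and vomeronasal neurons, stood at 7.26, 8.96 and 9.42 TPM in sham, against 4.99, 7.90 and 6.30 TPM in SNI. The groups overlapped. Gng8 fell by 0.38 (SE 0.15, limma adjusted p = 0.048), a call at the threshold that was lost under 7 of 13 alternatives (limma adjusted p up to 0.15). The log2 difference was −0.24 without SNI replicate 1 and −0.63 after quantile normalization. Gng11, which is also found outside neurons, stood at 10.03, 12.34 and 9.49 TPM in sham, against 6.51, 11.66 and 10.98 TPM in SNI, and did not pass (log2 difference −0.15, 95% interval from −0.56 to 0.27, limma adjusted p = 0.52). Its single low value in SNI replicate 1 set the sign, which turned without that library (log2 difference 0.09).

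The remaining gamma genes had group averages alone. Gng2, the next in abundance, averaged 154 and 185 TPM, Gng10 66.1 and 82.5 TPM and Gng12 23.0 and 32.8 TPM, all inside 1.5-fold. Gng4, Gng5, Gng7 and Gng13 had log2 ratios of −0.02, −0.02, −0.24 and −0.50. Gngt2 (Gene ID 690825), the gamma subunit of cone transducin, averaged 3.07 TPM in sham, against 10.1 TPM in SNI, from average read counts of 17.0 and 52.7. Its log2 ratio of 1.45 was the widest among the members, and its plain ratio was 3.30. Gnat2 and Gnb3, the alpha and beta partners of Gngt2 in cones, averaged at most 0.0967 and 1.41 TPM in either group.

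RGS proteins of the R4 family are small and act on Gi and Gq subunits. Their most abundant member, Rgs4, averaged 712 TPM in sham, against 588 TPM in SNI, and Rgs3 averaged 266 and 214 TPM. Rgs2 (Gene ID 84583), which acts on Gq in preference to Gi and is induced by many stimuli, averaged 28.2 and 57.9 TPM (read counts of 168 and 348) and was in the authors' deposited table of higher genes. Rgs18 (Gene ID 289076), known from platelets and myeloid cells, averaged 5.08 and 9.61 TPM, and Rgs1 (Gene ID 54289), known from lymphocytes, 0.810 and 1.80 TPM on average read counts of 9.67 and 21.7. Rgs16 (Gene ID 360857) averaged 3.86 and 7.03 TPM, but its average read counts of 95 and 127 differed less. Its log2 ratio was 0.72 from TPM and 0.42 from reads, so it passed 1.5-fold on 1 of these 2 scales. Rgs8, a brain member of the family, averaged 4.09 and 2.59 TPM, with a log2 ratio of −0.50.

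Rgs5 (Gene ID 54294), an R4 gene used as a marker of pericytes, stood at 24.5, 22.9 and 24.4 TPM in sham, against 34.4, 31.0 and 34.8 TPM in SNI. The groups were well apart. Rgs5 rose by 0.46 on the log2 scale, with an SE of 0.06 (adjusted p = 0.00018 by limma). It was the 1 member of 8 tested that rose, with 32% of the genes tested called higher, while 4 fell, with 29.2% called lower. Over all genes tested that was 510 higher and 466 lower, and after quantile normalization 402 and 608. The other 10 endothelial and mural markers summed to averages of 171 TPM in sham, against 177 TPM in SNI, with 7 of 10 higher. Of these, Acta2 rose (log2 fold change 0.33, limma adjusted p = 0.0021) and Cldn5 fell (−0.20, limma adjusted p = 0.021), while of the mural genes without values per library Pdgfrb averaged 22.1 and 20.8 TPM, Cspg4 7.37 and 7.39 TPM, Notch3 6.75 and 7.98 TPM and Kcnj8 2.19 and 3.06 TPM. The plain ratio of averages was 1.40 for both Kcnj8 and Rgs5. The part of vessel cells in the value of Rgs5 was not tested.

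**Figure D3:**
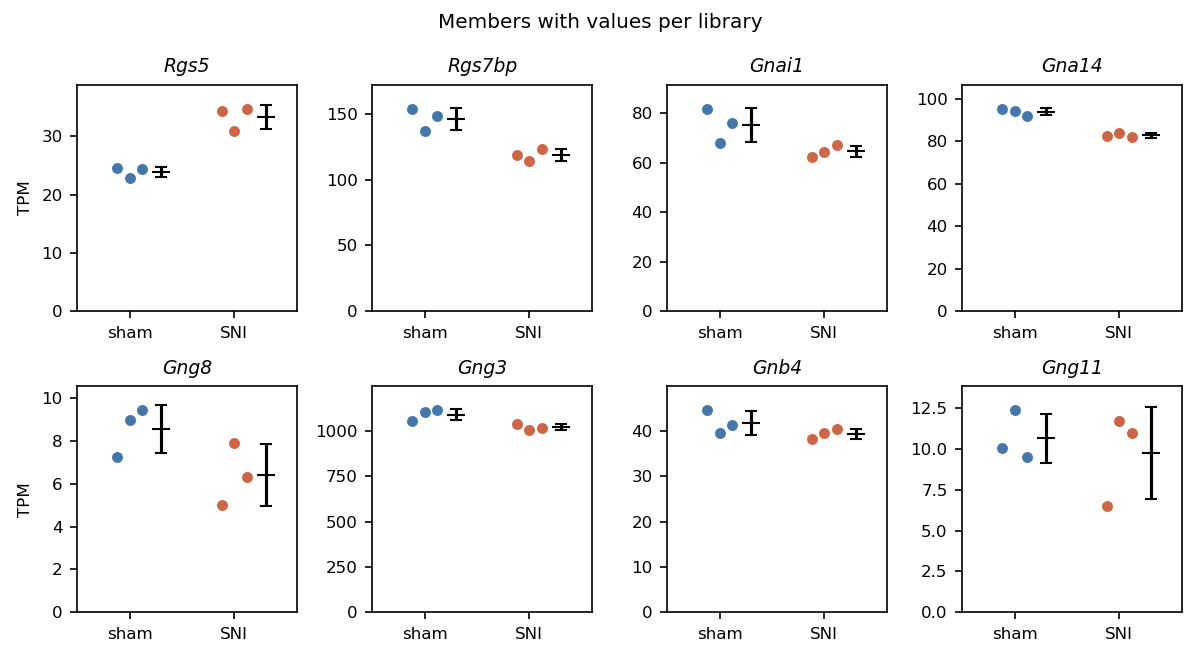
TPM in each library for the 8 members with values per library, each panel on its own axis from 0. Points are libraries (blue sham, orange SNI), and black bars give the mean and SD of 3. Rgs5 lies higher in all SNI libraries, Rgs7bp, Gnai1, Gna14 and Gng3 lie lower in all of them, and Gng8, Gnb4 and Gng11 overlap. Of all genes tested 32% were called higher and 29.2% lower, and the share with groups apart was not counted.

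Beside Gngt2, Gna15, Rgs18, Rgs1 and Rgs2, most markers of blood-derived cells had higher averages. These members were grouped after the values were seen, and Rgs16, also past 1.5-fold higher, is not among them. Rgs10, found in neurons and microglia, was lower, at averages of 355 TPM in sham, against 313 TPM in SNI. All 12 macrophage markers had higher averages in SNI and 9 were in the authors' deposited table of higher genes, with summed averages of 283 TPM in sham, against 661 TPM in SNI and 0 markers at 0. The 3 of them with values per library summed to between 19.9 and 21.5 TPM in sham libraries and between 45.6 and 47.1 TPM in SNI libraries. Of those 3, Fcgr3a rose (log2 fold change 2.02, limma adjusted p = 1.53e-07), while Cd163 and Mrc1 did not pass (log2 differences 0.04 and 0.18, limma adjusted p = 0.73 and 0.073). Lymphocyte markers summed to 9.61 and 14.2 TPM over 9 genes, of which 4 of the 5 with enough reads were higher. Of the platelet genes, Pf4 averaged 12.3 and 19.8 TPM and Itga2b 1.14 and 1.01 TPM, and with the red cell genes the list summed to 1382 and 4081 TPM. Markers of injured neurons, all 10 of them higher, summed to 459 and 3567 TPM, and myelinating Schwann cell markers, 7 of 8 of them lower, to 11059 and 5954 TPM. The part of each cell type in the averages of these G protein and RGS genes was not tested.

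The R7 family works as a complex. Rgs6, Rgs7 and Rgs9 bind Gnb5 in place of a gamma subunit, and the anchors Rgs7bp and Rgs9bp hold the pair at the membrane, where it limits signals of Gi and Go. All 5 genes of this complex with enough reads had lower averages in SNI, where 46.5% of all genes were lower, and 57.4% of those at a mean of at least 50 TPM, as Rgs7bp, Gnb5 and Rgs7 were. The complex was grouped after the values were seen. Rgs6 (Gene ID 54295) averaged 18.2 and 11.3 TPM, a log2 ratio of −0.64, Rgs7 63.5 and 56.8 TPM, Rgs9 1.58 and 1.13 TPM, and Gnb5 71.3 and 61.8 TPM. Rgs9bp had average read counts of 1.00 and 1.33, and no ratio is given. Rgs7bp (Gene ID 294715) stood at 154, 138 and 148 TPM in sham, against 119, 114 and 124 TPM in SNI. Its groups did not overlap, and it fell by 0.30 (SE 0.06, limma adjusted p = 0.0013), a call kept under all 13 alternatives. Beside these genes, 11 of 16 sensory neuron markers had lower averages, with a median log2 ratio of −0.27. Without the 3 neurofilament genes, a split made after the values were seen, 8 of 13 were lower, with a median of −0.06. The 6 of these markers with values per library summed to between 3229 and 3375 TPM in sham libraries, and to between 2831 and 2861 TPM in SNI libraries. Without Snap25, left out after the values were seen, the other 5 summed to between 1588 and 1621 TPM in sham libraries. In SNI libraries they summed to between 1553 and 1599 TPM, a range that overlaps. Calca made up most of these sums, at 1126 to 1200 TPM in sham libraries and 1147 to 1209 TPM in SNI libraries. Snap25, Scn10a and Mrgprd fell (log2 differences −0.43, −0.37 and −0.55, limma adjusted p = 1.18e-05, 0.00053 and 0.00017), while Calca, Elavl4 and Scn9a did not pass (0.03, 0.12 and −0.03, limma adjusted p = 0.52, 0.15 and 0.69). The part of neuron content in these averages was not tested.

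**Figure D4:**
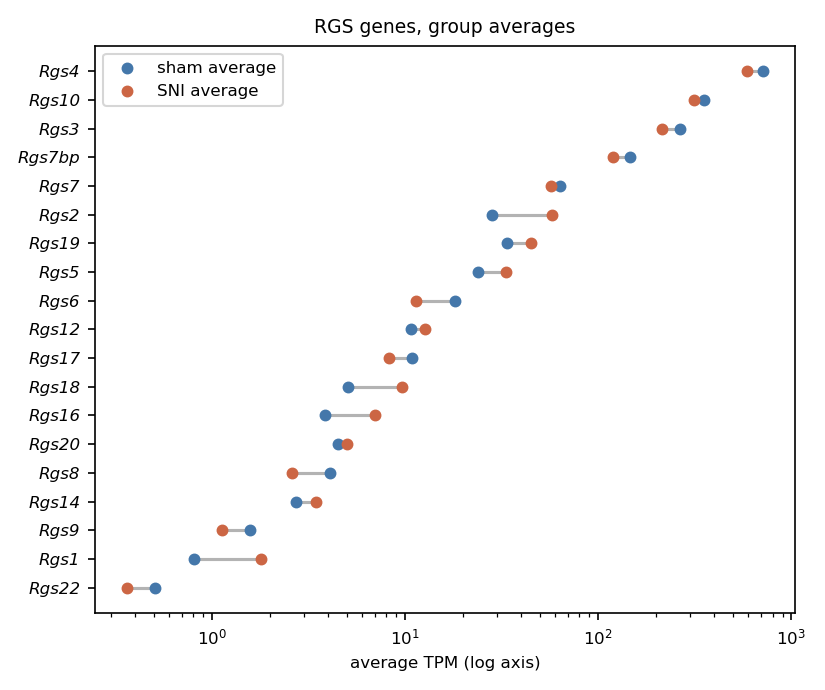
Authors' average TPM (log axis) of the 19 Rgs genes with enough reads, in sham (blue) and SNI (orange), ordered by mean level. The 5 most abundant genes (Rgs4, Rgs10, Rgs3, Rgs7bp and Rgs7) are lower in SNI, and Rgs2, Rgs18, Rgs16 and Rgs1 show the widest gaps to the right.

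In the R12 family, Rgs10, a short protein found in neurons and microglia, averaged 355 and 313 TPM, while the longer Rgs12 and Rgs14, which also bind Ras proteins, averaged 10.7 and 12.8 TPM and 2.71 and 3.47 TPM. Of the RZ family, which can act on Gz, Rgs19 averaged 33.8 and 44.9 TPM, Rgs17 10.9 and 8.28 TPM and Rgs20 4.51 and 5.03 TPM. Rgs22 averaged 0.507 and 0.363 TPM. None of these 7 genes was past 1.5-fold.

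Several RGS and alpha genes lie beside each other in the RefSeq annotation of GRCr8, and neighbours did not share a direction throughout. Rgs2, Rgs1 and Rgs18 lie in a run of RGS genes with no other protein-coding gene between them, and their log2 ratios were 1.01, 0.63 and 0.80. Rgs8 and Rgs16 are direct neighbours with log2 ratios of −0.50 and 0.72, as are Rgs5 and Rgs4 with 0.46 and −0.27. Gna11 and Gna15, also side by side, had log2 ratios of −0.08 and 0.75.

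Effectors and partners of G proteins were counted from lists of 51 measured genes, of which 49 had enough reads. Of these, 30 had higher averages in SNI (53.3% of all genes did) and 19 lower, and 4 were past 1.5-fold, all higher, a share near the 6.8% of all genes. Those 4 were Arrb1, which uncouples and internalizes receptors (61.3 and 106 TPM), Pdcl3, a phosducin-like protein (37.9 and 69.7 TPM), Gpsm3, a modulator of Gi in leukocytes (17.5 and 27.1 TPM), and Adcy4, an adenylyl cyclase (2.00 and 3.86 TPM). Plcb2, the phospholipase C of blood cells, was in the authors' deposited table of higher genes at averages of 0.407 and 0.923 TPM and read counts of 14.7 and 32.7, with a log2 ratio of 0.45 with 1 TPM added. Among 10 adenylyl cyclases 6 averages were higher and 4 lower, and among 4 GIRK channels, opened by beta-gamma, 1 was higher and 3 lower.

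Of 4 partner genes tested with limma, 1 rose, 1 fell and 2 did not pass. Arhgef12, which has an RGS-like domain, stood at 16.9, 13.6 and 14.8 TPM in sham, against 17.6, 19.1 and 20.2 TPM in SNI. It rose by 0.32 (SE 0.09, limma adjusted p = 0.011), a call lost after quantile normalization (0.16, limma adjusted p = 0.093). Its relative Arhgef11 stood at 67.9, 61.0 and 67.3 TPM in sham, against 55.7, 58.7 and 59.1 TPM in SNI, groups that lay apart by a narrow gap. It fell by 0.17 (SE 0.06, limma adjusted p = 0.026), and the call was lost on leaving out any library but sham replicate 2 (limma adjusted p from 0.051 to 0.10). Rack1, a scaffold related to beta subunits, had a log2 difference of 0.11 (limma adjusted p = 0.072), and the protein kinase A subunit Prkacb one of −0.02 (limma adjusted p = 0.71).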

How the data were processed

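Per the labels' protocols, total RNA of frozen ganglia was sequenced on Illumina libraries, with more than 1 extraction and library kit named. For the aligner, counter, genome build, annotation and strand setting, the sources used here give nothing. Reads of overlapping or antisense genes may therefore be mixed. The deposited values, per the file headers, are TPM in each library for 1637 genes, chosen by a rule not stated, and group averages of TPM for 18696 genes. The authors also deposited averages of read counts, taken here as estimated counts since they are not whole, with no scaling stated. Lists of higher (699) and lower genes were also deposited by the authors, with identifiers and pathway names and no scores. Columns named control were taken as sham.

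A filter at a mean of 1 TPM kept 1596 genes and left out 41. On log2(TPM + 1), limma 3.58.1 under R 4.3.3 fitted group alone, its variance prior following the intensity, and called genes at a Benjamini-Hochberg adjusted p under 0.05 over those tested. This scale understates the change of low genes. The adjustment ran over genes that the authors had chosen, of which 32% were called higher and 29.2% lower. With so many genes called it raises p little, so the adjusted p-values and the calls may be lenient. The fit was tested on simulated data in which a small part of the genes changed, equally in both directions. That simulation does not cover the authors' choice of genes or the dependence on normalization. The smallest two-sided p of an exact permutation test is 0.1 at this group size, so none was run. Ratios of averages add 1 TPM to both groups, count as past 1.5-fold in either direction and need an average of at least 10 reads in 1 group. They have no test. Values per library are printed for each member that has them, and averages for members past 1.5-fold, in the authors' lists or among the 3 most abundant of their role; the other members printed were added. The members and lists were chosen with earlier results of these data known. Names and sequences came from RefSeq tables of GRCr8, matched by gene ID (53 of 53 members, 42 with an upstream sequence). Python 3.11.15, pandas 2.3.3, numpy 2.4.6 and matplotlib 3.10.9 were used besides R.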

Additional observations from a re-analysis of the deposited data

How the results depend on the processing

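The count of members that rose was 1 under all 13 alternatives to the limma fit. The count that fell was 4, ranged from 2 to 4 when single libraries were left out, with 2 without sham replicate 3 or without SNI replicate 1, and from 3 to 6 otherwise. The 6 came from quantile normalization, which added Gng3 and Gnb4 (limma adjusted p = 0.0083 and 0.019) and moved calls over all tested genes from 510 higher and 466 lower to 402 and 608. The calls of Rgs5, Rgs7bp and Gna14 were kept under all 13. Gng3 also passed without sham replicate 1 (limma adjusted p = 0.022). With single libraries left out, the log2 difference of Gng11 ran from −0.28 to 0.092 (without SNI replicate 1). After quantile normalization it was −0.36. That of Prkacb ran from −0.049 to 0.022 (without sham replicate 1), with 0.0039 without SNI replicate 1. Of the partner genes, the count that rose was 0 after quantile normalization and 1 to 2 with single libraries left out (2 without sham replicate 2, where Rack1 passed), and the count that fell was 0 to 1 with single libraries left out. Members past 1.5-fold between averages numbered 6 higher and 1 lower. At 2-fold they were 2 and 0. With 0.1 TPM added, or from average read counts, 4 were lower, as Rgs8, Gnb3 and Gng13 joined Rgs6. With the replicate block, 1 member rose and 4 fell, as without it. Same-numbered libraries had deviations correlated at −0.09, −0.06 and 0.19, so the replicate number was not taken as a pairing, and not every sample correlated best with its own number. The depth of single libraries is unknown, which limits what can be said of members with few reads. The 45 members without values per library have no measure of error.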

Other observations

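The members were also expressed as shares of the summed averages of their class. Gnas made up 63.8% of all G alpha transcripts in sham and 64.0% in SNI, and Gnb1 58.8% and 58.1% of the Gnb transcripts. Gng3 made up 77.4% of the gamma transcripts in sham and 73.1% in SNI, while Gng2 made up 10.9% and 13.3%, Gng12 1.63% and 2.35% and Gngt2 0.218% and 0.726%. Gna15 made up 0.0460% and 0.0935% of the alpha transcripts. Among Rgs transcripts, Rgs4 made up 42.1% and 39.5% and Rgs2 1.67% and 3.88%. The summed averages were 4776 and 4689 TPM for alpha, 2472 and 2472 TPM for beta and gamma together, and 1692 and 1491 TPM for Rgs genes, a ratio of 0.881. These shares come from group averages and have no error.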
